A study of Mus musculus with 20 samples.

Results

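The nuclear genes for subunits of the oxidative phosphorylation (OXPHOS) complexes were followed in mouse embryonic stem cells (ESCs) in which Cnot3 was deleted. Members were protein-coding genes whose symbols begin with Nduf and a subunit number, Uqcr, Cox4 to Cox8 or Atp5, together with Sdha, Sdhb, Sdhc and Sdhd. The rule found 84 genes among the 37991 gene IDs in the count files. Of these, 35 belong to complex I, 4 to complex II, 8 to complex III, 20 to complex IV and 17 to complex V, with Ndufa4 and Ndufa4l2 counted in complex IV. Enough reads for testing were present for 82. The exceptions were Cox6a2 and Cox8b, the heart and muscle isoforms of their subunits, with at most 3 and 5 reads in any library.

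Oxidative phosphorylation takes place at the inner mitochondrial membrane. Complexes I to IV form the respiratory chain: complex I oxidises NADH, complex II oxidises succinate, complex III passes electrons from ubiquinol to cytochrome c, and complex IV reduces oxygen. The proton gradient built by complexes I, III and IV drives complex V, the ATP synthase. A few subunits are encoded by mitochondrial DNA, and all others are made from nuclear mRNAs, translated in the cytosol and imported. Mouse ESCs use glycolysis as well as respiration for ATP.

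Cnot3 is a subunit of CCR4-NOT, the cytoplasmic complex that shortens poly(A) tails. Cnot3 conditional knockout ESCs (strain label C57BL/6) were given 0.1 µM 4-hydroxytamoxifen to delete the gene (KO) or DMSO as vehicle (WT). On day 3, total RNA and RNA of the polysome fraction, which holds mRNAs carrying several ribosomes, were sequenced from both arms. In a separate experiment actinomycin D, which blocks transcription, was added at 10 µg/ml on day 2, and total RNA was taken after 0, 4 and 8 h. Each of the 10 groups had 2 biological replicates, so the 20 libraries comprised 4 of total RNA, 4 of polysomes and 12 of the actinomycin D series. The source label of the WT total and polysome libraries is E14Tg2a, another ESC line, while the design describes vehicle-treated conditional cells. Line and deletion therefore cannot be told apart in the day 3 comparisons, whereas all 12 libraries of the actinomycin D series carry the conditional label.

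Cnot3 itself was lower in every KO library. On day 2 at 0 h it measured 107 and 108.8 CPM (counts scaled to library size) in WT and 11.4 and 11.9 CPM in KO. In total RNA it measured 46.2 and 47.1 CPM in WT against 7.33 and 8.12 CPM in KO, and in polysomes 95.6 and 78.0 against 15.2 and 16.6 CPM. Libraries held 27664391 to 35170012 gene counts in total RNA, 13832829 to 16688555 in polysomes and 14513891 to 33262905 in the actinomycin D series. WT polysome replicate 2 stood apart, with 5.04% of its counts in mitochondrially encoded genes, and replicates in that group differed most (chi-square per degree of freedom of 71.6, against 1.29 to 12.6 in the other groups).

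Members together took a small share of the library. At 0 h they held 1.26% and 1.27% of counts in the WT replicates and 1.12% and 1.09% in KO. In total RNA the shares were 1.33% and 1.20% in WT and 1.11% and 1.03% in KO, and in polysomes 1.59% and 1.71% in WT and 1.37% and 1.21% in KO. The WT and KO libraries did not overlap in any of these 3 settings. All levels are relative to the other mRNAs in a library, so a fall need not mean less mRNA per cell. In bulk RNA, less mRNA per cell and fewer cells that express a gene cannot be told apart either.

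Within the WT cells, levels per length differed widely between subunits. Levels are given as RPKM, that is CPM divided by mRNA length in kilobases, and were scaled separately in the day 3 and actinomycin D experiments. Atp5b, the catalytic beta subunit of the ATP synthase, was the highest member, with 1409 and 1424 RPKM in the 0 h WT replicates, 1318 and 1291 in total RNA and 1521 and 1394 in polysomes. Atp5a1, the alpha subunit, followed at 0 h with 712 and 715 RPKM, then Cox4i1, a ubiquitous complex IV subunit, with 549 and 540 RPKM and Atp5g3, one of 3 genes for the c ring, with 470 and 478 RPKM. The replicates of these 4 did not overlap at 0 h. Summed over members, complex V gave 4213 and 4238 RPKM at 0 h in WT, complex I 2482 and 2433, complex IV 2465 and 2484, complex III 1142 and 1110, and complex II 356 and 350. Complexes I and IV did not differ beyond their replicates in this sum. A sum grows with the number of members, so the median member is given too. At 0 h in WT it was at 62.1 and 59.3 RPKM in complex I and 104 and 102 in complex II. It was at 113 and 110 RPKM in complex III, 39.6 and 45.5 in complex IV and 133 and 136 in complex V. The lowest tested members at 0 h were the testis isoform Cox7b2 (0.47 and 0.561 RPKM) and the complex I subunit Ndufs5 (0.536 and 0.546 RPKM). Ndufs5 was also low in WT polysomes (0.638 and 1.39 RPKM), but in WT total RNA it was at 27.4 and 20.4 RPKM.

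On day 2, before actinomycin D, most members were lower in KO. By edgeR's quasi-likelihood test at an adjusted p of 0.05, 63 of 82 fell and 3 rose, where 32.9% of all genes tested fell and 29.8% rose. The median log2 change of members was -0.36, beside -0.015 over all genes. The summed level of members per length in KO was 0.774 of WT, from 10657 and 10616 RPKM to 8271 and 8204 RPKM. WT and KO libraries did not overlap, with KO lower, for 68 members, against 41.5% of all genes. Under each of 8 other scalings, filters and fits 48 to 70 members fell, and the median stayed between -0.49 and -0.20.

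In complex I, 29 of 35 members fell at 0 h and none rose (median log2 -0.28). Ndufa1, a small accessory subunit encoded on the X chromosome, had the largest fall, from 90.3 and 84.7 RPKM to 58.0 and 52.2 RPKM (log2 -0.67 ± 0.07 SE, adjusted p = 2.05e-11). Ndufa10, another accessory subunit, went from 73.9 and 78.1 to 51.4 and 53.4 RPKM (-0.54 ± 0.04). The KO libraries lay below both WT libraries in each case. The core subunits, which carry the flavin and the iron-sulfur clusters, had smaller changes. Of 7 nuclear core subunits 6 fell, with a median of -0.19, and of 28 accessory subunits 23 fell, with a median of -0.32. Ndufs3, a core subunit, was at 35.3 and 34.0 RPKM in WT and 38.1 and 32.9 RPKM in KO, so its groups overlapped. The core subunits also had longer mRNAs, with a median of 1623 bases against 747.5 for the accessory subunits. Across all 82 tested members of the complexes together, Pearson's r of the 0 h change with log2 mRNA length was -0.021 and Spearman's rho 0.15. The relation within complex I alone was not tested. The grouping into core and accessory subunits was made after the values were seen, and the difference between groups was not tested.

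Complex II has 4 subunits. Sdhc, a membrane anchor, fell from 39.2 and 38.7 to 27.2 and 25.2 RPKM (log2 -0.57 ± 0.04). Sdhb, the iron-sulfur subunit, fell from 108 and 109 to 83.2 and 81.7 RPKM (-0.39 ± 0.04), and Sdhd, the other anchor, from 109 and 104 to 90.3 and 89.3 RPKM (-0.25 ± 0.04). The flavoprotein Sdha, which binds succinate, was at 99.7 and 98.6 RPKM in WT and 95.4 and 97.2 in KO (-0.04 ± 0.04, adjusted p = 0.314). Its KO libraries lay just below those of WT, within the error of the fit.

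In complex III 5 of 8 members fell at 0 h. The 5 small subunits Uqcrb, Uqcrq, Uqcrh, Uqcr10 and Uqcr11 all fell at 0 h, with log2 changes of -0.57 to -0.27. Uqcr11 fell from 104 and 94.0 to 65.5 and 67.9 RPKM (-0.57 ± 0.07), and Uqcrh, the hinge protein next to cytochrome c1, from 208 and 203 to 151 and 153 RPKM (-0.44 ± 0.04, adjusted p = 3.14e-11). None of the other three passed the test, with log2 changes of -0.08 to 0.06. They are the core proteins Uqcrc1 and Uqcrc2 and the Rieske iron-sulfur protein Uqcrfs1. Uqcrfs1 was at 65.5 and 71.9 RPKM in WT and 69.8 and 73.0 in KO, and its groups overlapped. These 3 have a median mRNA of 1653 bases, against 535 for the small subunits, and the difference between the sets was not tested.

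In complex V 15 of 17 members fell at 0 h (median -0.42), among them the 5 subunits of the catalytic F1 head. Atp5b had the smallest adjusted p of any member (3.68e-16), with a fall to 1004 and 997 RPKM in KO (log2 -0.50 ± 0.03). Atp5e, the epsilon subunit, fell from 227 and 232 to 166 and 142 RPKM (-0.57 ± 0.06). The 2 members that did not pass were Atp5g2, at 2.14 and 1.99 RPKM in WT and 1.79 and 2.09 in KO, and Atp5s, a factor of the synthase and its assembly, at 1.55 and 2.03 RPKM in WT and 2.48 and 2.12 in KO (0.36 ± 0.16, adjusted p = 0.0573).

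**Figure D1:**
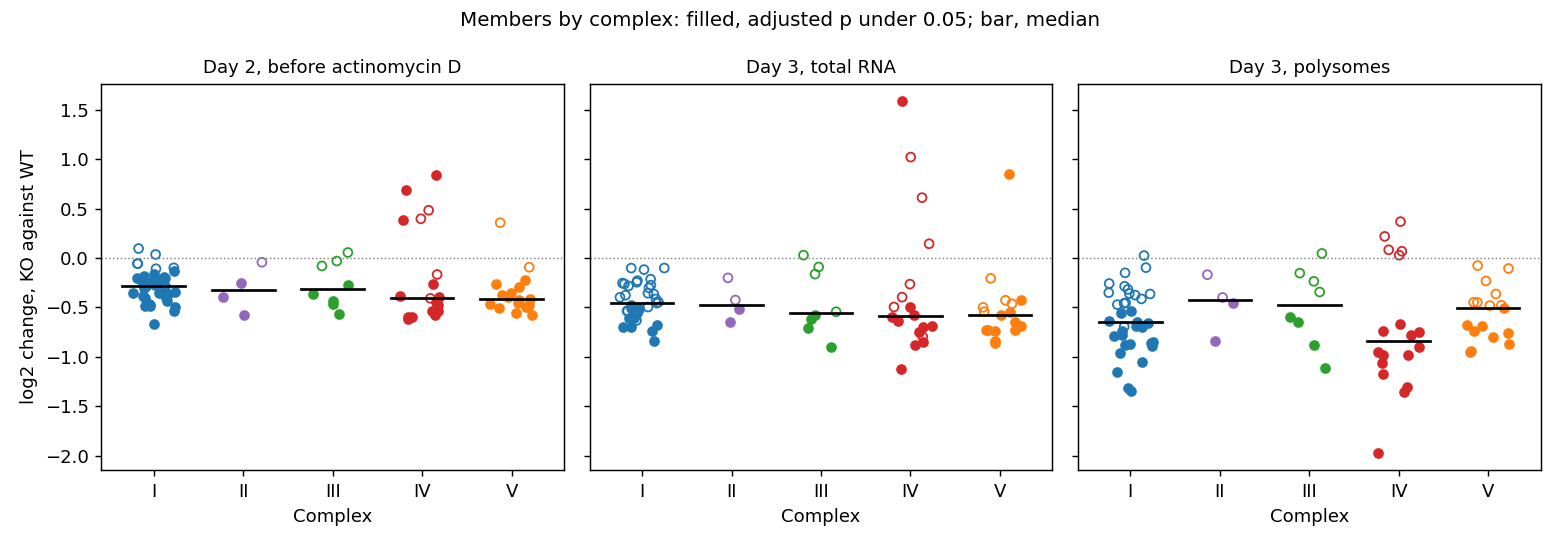
Log2 change of each tested member in KO against WT (vertical axis) by complex (horizontal axis) on day 2 before actinomycin D, in day 3 total RNA and in day 3 polysomes. Filled points passed an adjusted p of 0.05, open points did not, and bars are medians. Nearly all points lie below 0 in the 3 panels, and the points well above 0 belong mainly to complex IV.

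Complex IV held all members that rose at 0 h. Of its 18 tested members 11 fell and 3 rose. Cox6c fell from 135 and 127 to 84.7 and 85.3 RPKM (log2 -0.62 ± 0.05) and Cox6a1 from 294 and 300 to 201 and 197 RPKM (-0.58 ± 0.04). Both are ubiquitous subunits. Of 12 subunits that are not tissue-type isoforms, 11 fell (median -0.51), and Cox5b had -0.41 ± 0.16 without passing. The 3 that rose were Cox6b2, Cox4i2 and Cox7a1, which are known as the testis, lung and heart or muscle forms of their subunits.

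Cox6b2 rose from 24.7 and 22.2 to 43.1 and 40.7 RPKM at 0 h (log2 0.84 ± 0.08, adjusted p = 1.14e-11), while its ubiquitous counterpart Cox6b1 fell from 201 and 194 to 127 and 135 RPKM (-0.59 ± 0.04). In the sum of the pair per length, Cox6b2 thus took 10.9% and 10.2% in WT and 25.4% and 23.2% in KO. The share was also higher in the KO libraries of total RNA (13.9% and 17.0%, against 5.94% and 6.56%) and of polysomes (26.7% and 31.5%, against 12.3% and 17.7%). Alone, Cox6b2 had log2 changes of 0.61 ± 0.24 in total RNA and 0.22 ± 0.23 in polysomes and passed in neither. The WT and KO shares did not overlap in any of the 3.

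Cox4i2 was far rarer than Cox4i1. It rose from 2.68 and 2.86 to 5.16 and 3.77 RPKM at 0 h (log2 0.69 ± 0.19, adjusted p = 0.00189) and from 1.44 and 1.43 to 4.70 and 3.94 RPKM in total RNA (1.59 ± 0.26, adjusted p = 0.00181). At 0 h it did not pass without KO replicate 1 or by DESeq2. Its share of the Cox4 pair stayed at or below 1.14% in every library. Cox7a1 went from 17.6 and 14.6 to 22.3 and 19.5 RPKM at 0 h (0.38 ± 0.13, adjusted p = 0.00812), and this call was lost without KO replicate 1, without WT replicate 2, with RLE scaling and by DESeq2. Cox7a2, its ubiquitous counterpart, fell from 196 and 185 to 133 and 130 RPKM. The testis isoforms Cox7b2 and Cox8c, at or below 1.77 RPKM in the 0 h libraries, passed in none of the 3 comparisons.

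Ndufa4l2, the hypoxia-inducible relative of Ndufa4, passed the test on day 3 and not at 0 h. At 0 h it was at 16.02 and 19.4 RPKM in WT and 18.7 and 12.9 in KO, with overlapping groups. On day 3 it fell from 4.40 and 3.87 to 2.31 and 1.49 RPKM in total RNA (log2 -1.13 ± 0.33, adjusted p = 0.0282) and from 27.7 and 42.3 to 11.2 and 6.76 RPKM in polysomes (-1.97 ± 0.28, adjusted p = 0.000584). These were the largest falls of any member in either fraction. The difference between the day 3 and day 2 changes was -0.93 ± 0.39 and did not pass (adjusted p = 0.275).

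**Figure D2:**
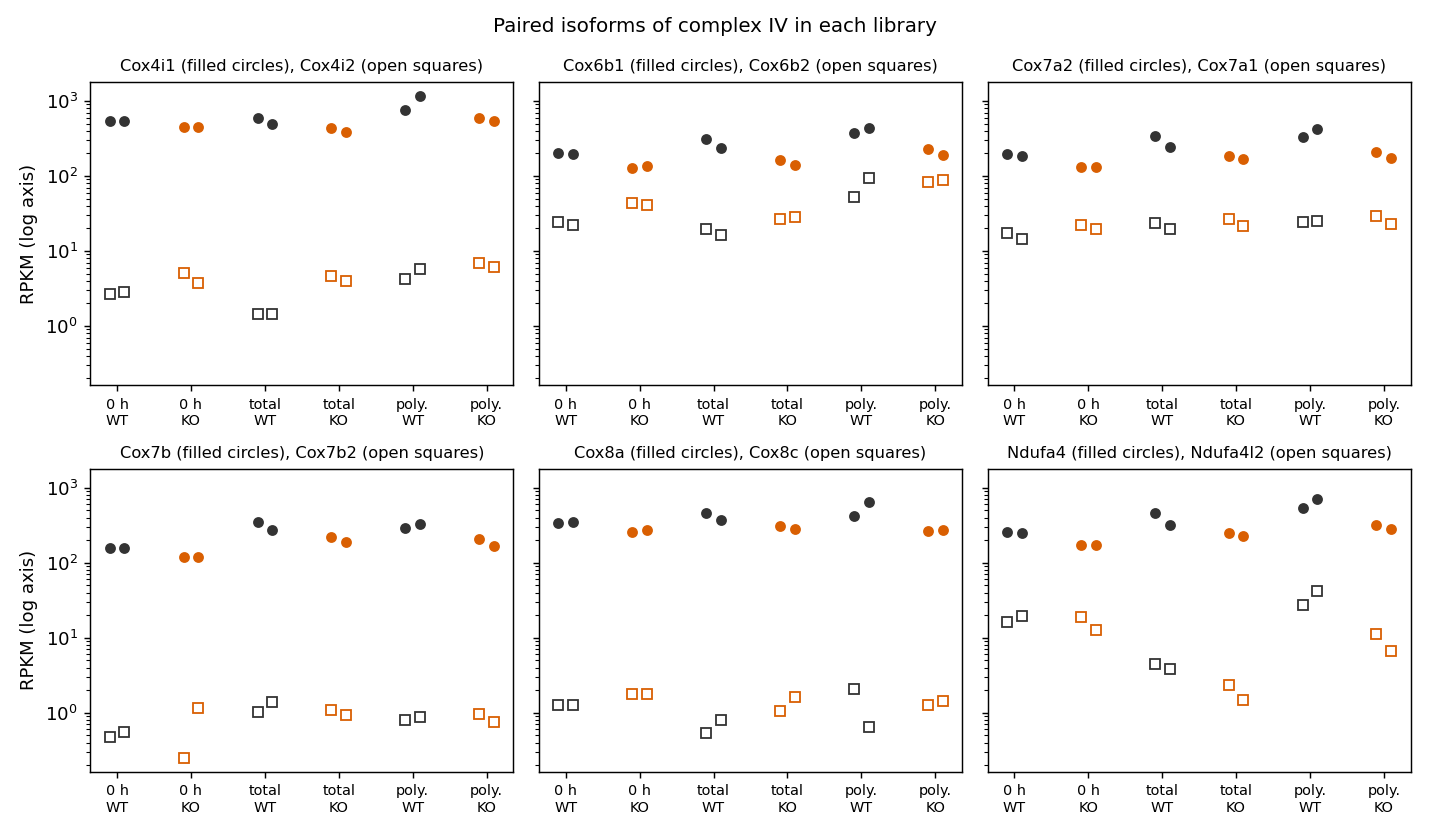
RPKM of 6 pairs of complex IV isoforms (log vertical axis) in each library at 0 h, in total RNA and in polysomes, with WT in dark grey and KO in orange and both replicates shown. Filled circles are the ubiquitous forms and open squares the tissue-type forms. Circles are lower in KO throughout, while the squares of Cox6b2 and Cox4i2 are higher in KO at 0 h and in total RNA.

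Promoters were examined because most members, 63 of 82, fell at 0 h. RefSeq promoter windows on GRCm38.p6, from 250 bases before to 50 after the start, matched 68 of the 84 members. The 200 bases before the start are shown for the falling member of smallest adjusted p in each complex that holds a searched motif there, and for Cox6b2, the member with the highest change at 0 h. Sequences run 5′ to 3′ on the gene's strand, and capitals mark matches to the motifs of NRF1 and of ETS factors on either strand.
Ndufs6, chr13:73328483-73328682, minus strand: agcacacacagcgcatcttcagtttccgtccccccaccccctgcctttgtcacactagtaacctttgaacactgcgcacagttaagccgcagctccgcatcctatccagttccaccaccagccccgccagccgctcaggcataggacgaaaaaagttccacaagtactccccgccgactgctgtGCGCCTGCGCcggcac
Sdhd, chr9:50603850-50604049, minus strand: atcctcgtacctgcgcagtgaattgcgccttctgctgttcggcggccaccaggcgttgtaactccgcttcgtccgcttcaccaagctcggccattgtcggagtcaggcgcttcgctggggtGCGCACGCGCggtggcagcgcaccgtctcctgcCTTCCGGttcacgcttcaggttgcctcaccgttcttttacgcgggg
Uqcrh, chr4:116075071-116075270, minus strand: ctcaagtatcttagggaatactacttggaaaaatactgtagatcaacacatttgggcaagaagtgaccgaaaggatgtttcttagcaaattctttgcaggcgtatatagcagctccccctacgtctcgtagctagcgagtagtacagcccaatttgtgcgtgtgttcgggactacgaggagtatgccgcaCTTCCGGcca
Cox6a1, chr5:115348959-115349158, minus strand: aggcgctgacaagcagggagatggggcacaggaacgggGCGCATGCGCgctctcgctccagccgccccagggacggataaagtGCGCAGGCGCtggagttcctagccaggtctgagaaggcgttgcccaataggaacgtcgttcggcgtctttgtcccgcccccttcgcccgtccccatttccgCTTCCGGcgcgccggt
Atp5h, chr11:115419920-115420119, minus strand: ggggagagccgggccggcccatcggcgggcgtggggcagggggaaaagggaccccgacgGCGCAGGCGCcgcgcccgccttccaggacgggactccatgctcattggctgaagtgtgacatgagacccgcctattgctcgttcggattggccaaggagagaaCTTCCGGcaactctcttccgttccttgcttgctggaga
Cox6b2, chr7:4753095-4753294, minus strand: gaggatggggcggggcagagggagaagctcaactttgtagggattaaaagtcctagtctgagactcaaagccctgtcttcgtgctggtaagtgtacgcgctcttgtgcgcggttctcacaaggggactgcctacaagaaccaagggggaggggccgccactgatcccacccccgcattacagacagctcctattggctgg

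The motif of the respiratory factor NRF1 (GCGC, any base, then TGCGC), searched like the others on both strands, was found in 24.7% of 73 member windows and in 6.38% of 21263 windows of protein-coding genes. The ETS core CCGGAAG, bound by GABP, was found in 21.9% against 11.6%. AAGATGGC, the core of the YY1 motif, was found in 13.7% against 3.05%. Matches of different motifs overlapped 0 times in the member windows. Of the tested members with the NRF1 motif 10 of 17 fell at 0 h, against 42 of 50 with a window without it. For the ETS motif the counts were 15 of 16 and 37 of 51, and for YY1 10 of 10 and 42 of 57. Among all genes tested 32.9% fell, and the differences by motif were not tested. Members with the NRF1 motif that did not fall include Atp5g2 and Ndufb4, at or below 3.20 RPKM in WT at 0 h. They also include the more abundant Uqcrc1 (245 and 246 RPKM), Ndufa11 (107 and 102 RPKM) and Sdha (99.7 and 98.6 RPKM). A match describes letters in the window and is not a measured binding site. The genes for these factors are named among the regulators below.

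On day 3, total RNA again held lower levels of most members in KO. By edgeR 38 of 82 fell and 2 rose, where 12.2% of all genes fell and 16% rose, and the median of members was -0.52 beside 0.013 over all genes. Non-overlapping libraries with KO lower were seen for 70 members, against 39.4% of all genes. By complex, 11 of 35 members of complex I fell, 2 of 4 of complex II, 4 of 8 of complex III, 10 of 18 of complex IV and 11 of 17 of complex V. Uqcr11 fell from 373 and 254 to 180 and 155 RPKM (log2 -0.90 ± 0.22), Cox6c from 467 and 314 to 227 and 198 RPKM (-0.88 ± 0.23) and Atp5e from 468 and 358 to 252 and 209 RPKM (-0.84 ± 0.17). All lie clear of WT, but the WT replicates themselves differ by more than 100 RPKM in each. None of the 7 nuclear core subunits of complex I passed (median -0.28), nor did Uqcrc1, Uqcrc2 or Uqcrfs1, while 11 of the 28 accessory subunits of complex I and 4 of the 5 small subunits of complex III fell.

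The 2 members that rose in total RNA were Cox4i2 and Atp5s, the latter from 1.71 and 1.56 to 3.02 and 2.87 RPKM (log2 0.85 ± 0.23, adjusted p = 0.0205). Atp5s did not pass when any 1 of the 4 total libraries was left out (adjusted p = 0.124 to 0.152 by edgeR). The count of falls rested on single libraries too: it was 0 without WT replicate 1, 29 without WT replicate 2, 6 without KO replicate 1, 1 without KO replicate 2, 28 without either KO polysome library and 63 without either WT polysome library. With library totals as the only scaling, where the median over all genes was 0.27, 7 fell and 3 rose. The median of members was between -0.70 and -0.26 under all alternatives.

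In polysomes 48 members fell and none rose, where 21.1% of all genes fell and 15.9% rose, and the median was -0.65 beside -0.083 over all genes. Libraries did not overlap, with KO lower, for 69 members, against 34% of all genes. The falls comprised 20 of 35 members of complex I, 2 of 4 of complex II, 4 of 8 of complex III, 13 of 18 of complex IV and 9 of 17 of complex V. All 12 complex IV subunits that are not tissue-type isoforms were among them (median -0.96). Cox6a1 fell from 349 and 719 to 207 and 211 RPKM (log2 -1.36 ± 0.28), Ndufa1 from 133 and 260 to 80.0 and 74.9 (-1.34 ± 0.29) and Ndufb5, an accessory subunit of complex I, from 118 and 207 to 72.8 and 58.0 (-1.32 ± 0.23). In each the second WT replicate, which stood apart in its mitochondrial share, was the higher. None of the 7 core subunits of complex I passed. The count of falls was 46 without WT polysome replicate 2, 57 without WT replicate 1, 29 without KO replicate 1 and 12 without KO replicate 2.

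Polysome association, the polysome change minus the total RNA change, passed the test for no member by edgeR, where 0.00546% of all genes were higher and 0.00546% lower (0.0109% in all). The count was also 0 by DESeq2, and 2 members had an unadjusted p under 0.05, both lower. The median of members was -0.13, beside -0.076 over all genes. Cox4i2 was the most extreme, at -1.22 ± 0.35 (adjusted p = 0.257), and the testis isoform Cox8c had -0.94 ± 0.76. Without WT polysome replicate 1, 11 members were lower.

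The change on day 3 in total RNA was also set against that on day 2. The difference of the 2 changes passed for no member by edgeR, where 2.29% of all genes were lower and 2.54% higher (4.83% in all). DESeq2 called 1 member lower, and 5 members had an unadjusted p under 0.05, 3 of them lower. The median difference was -0.13, beside 0.016 over all genes. Without WT total replicate 2, 47 members were lower on day 3 than on day 2. The 2 experiments also differ in the line label of WT.

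Across the 3 comparisons of KO with WT, 29 of 82 members fell in each, where 9.71% of the 15715 genes tested in both experiments did. They include Atp5b, Atp5e and Atp5g3 in complex V, Cox6b1, Cox6c, Cox7a2 and Cox7b in complex IV, Uqcr11, Uqcrh and Uqcrq in complex III, Sdhc in complex II, and Ndufa1, Ndufa10, Ndufa13 and Ndufs6 in complex I. The total and polysome comparisons come from 1 fit that shares its estimate of the spread. Another 15 members fell in none, as did 60.6% of those genes: Ndufa11, Ndufa12, Ndufb4, Ndufs3, Sdha, Uqcrc1, Uqcrc2, Uqcrfs1, Cox4i2, Cox6b2, Cox7a1, Cox7b2, Cox8c, Atp5g2 and Atp5s.

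After actinomycin D, members gained in share as other mRNAs were lost. The slope is the change of log2 level per hour over 0, 4 and 8 h, relative to the average mRNA because TMM scaling centres the log ratios of most genes between libraries on 0, so a slope above 0 marks an mRNA lost more slowly than average and not new synthesis. In WT 81 of 82 members had a slope above 0 by edgeR and none below, where 35% of all genes were above and 38.8% below. The median of members was 0.15 log2 per hour, beside -0.0063 over all genes. Members held 1.26% and 1.27% of counts at 0 h, 1.86% and 1.84% at 4 h and 2.29% and 2.26% at 8 h. The summed RPKM of members at 8 h was 2.33 times that at 0 h. Scaled to the mRNAs of cytosolic ribosomal proteins in place of all genes, 27 slopes in WT were above 0 and 15 below, and in KO 6 were above and 10 below.

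Median slopes in WT were 0.15 in complexes I and III, 0.14 in complex II and 0.16 in complexes IV and V. As a ratio of 8 h to 0 h, the summed level was highest in complex IV (2.48), from 2465 and 2484 to 6192 and 6070 RPKM, and lowest in complex II (2.07), from 356 and 350 to 741 and 723 RPKM. Ndufs5 had the steepest slope (0.21 ± 0.04 SE) but was under 1 RPKM at 0 h. Cox6c, at 0.19 ± 0.0093, went from 135 and 127 to 236 and 237 and then 376 and 359 RPKM. Ndufs3 (0.053 ± 0.012) and Uqcrfs1 (0.075 ± 0.0093) had the lowest slopes among abundant members. Uqcrfs1 went from 65.5 and 71.9 to 95.2 and 83.8 and then 105 and 103 RPKM. The member that did not pass was Cox7b2, at 0.069 ± 0.069.

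In KO 79 of 82 members had a slope above 0 and none below, where 31.6% of all genes were above and 36.3% below, with a median of 0.11 beside -0.0026 over all genes. The share of counts went from 1.12% and 1.09% at 0 h to 1.45% and 1.47% at 4 h and 1.71% and 1.72% at 8 h. Summed RPKM at 8 h was 1.81 times that at 0 h. In KO, summed RPKM was 0.774 of WT at 0 h, 0.660 at 4 h and 0.601 at 8 h. At 8 h the ratio was lowest in complex IV (0.564) and complex V (0.574) and highest in complex II (0.692).

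**Figure D3:**
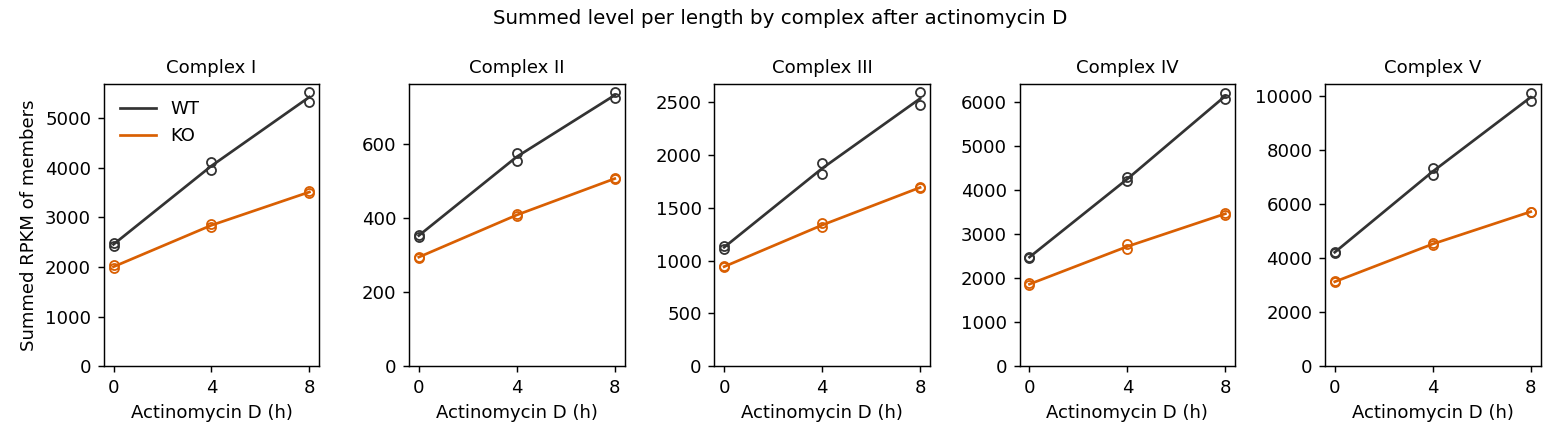
Summed RPKM of the members of each complex (vertical axes starting at 0) against hours of actinomycin D (horizontal axis). Circles are the 2 replicates and lines join their means, with WT in dark grey and KO in orange. In each complex the KO circles lie below the WT circles at every time, and the gap widens from 0 to 8 h.

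The slope was lower in KO than in WT for 29 members and higher for none by edgeR's test of the difference, where 8.78% of all genes were lower and 10.2% higher. Each slope is relative to the average mRNA of its own arm, so a lower slope in KO need not mean faster loss of that mRNA. Whether the average loss itself differed between WT and KO was not tested. The median difference was -0.046 log2 per hour, beside -0.013 over all genes. It was below 0 for 79 members, and 53 had an unadjusted p under 0.05, all lower. The lower slopes comprised 12 of 35 members of complex I, 0 of 4 of complex II, 4 of 8 of complex III, 8 of 18 of complex IV and 5 of 17 of complex V. No core subunit of complex I passed (median -0.019), against 12 of 28 accessory subunits (median -0.050).

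Uqcr11 had the largest called difference (-0.079 ± 0.018 log2 per hour, adjusted p = 0.00747). It reached 282 and 244 RPKM at 8 h in WT and 117 and 113 in KO, from 104 and 94.0 and from 65.5 and 67.9 RPKM. Ndufa13, an accessory subunit also known as GRIM-19, had the smallest adjusted p (0.00098) and a difference of -0.078 ± 0.013. It went from 50.3 and 50.3 to 135 and 130 RPKM in WT and from 38.6 and 37.5 to 64.2 and 65.9 in KO. Cox6c differed by -0.071 ± 0.013 (adjusted p = 0.00246), with 162 and 161 RPKM in KO at 8 h against 376 and 359 in WT. At the other end, Uqcrfs1 and Ndufs3 had differences of 0.0059 ± 0.013 and 0.012 ± 0.017 that did not pass. At 8 h Uqcrfs1 was at 105 and 103 RPKM in WT and 111 and 112 in KO.

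The count of 29 moved with the processing. It was 8 with RLE scaling, 13 with library totals, 16 by DESeq2, 41 with a filter of 1 CPM, 50 for 4 h against 0 h and 63 for 8 h against 0 h with time as a factor. Scaled to the mRNAs of cytosolic ribosomal proteins, 6 were lower and 8 higher, and scaled to mitochondrially encoded mRNAs 0 were lower. These scalings set the median difference of all genes to 0.025 and 0.045. Without single libraries the count was 9 without WT replicate 2 of 0 h or either KO replicate of 8 h, 11 without WT replicate 1 of 0 h, 17 without KO replicate 1 of 0 h, 18 without WT replicate 1 of 8 h and 43 without WT replicate 1 of 4 h.

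**Figure D4:**
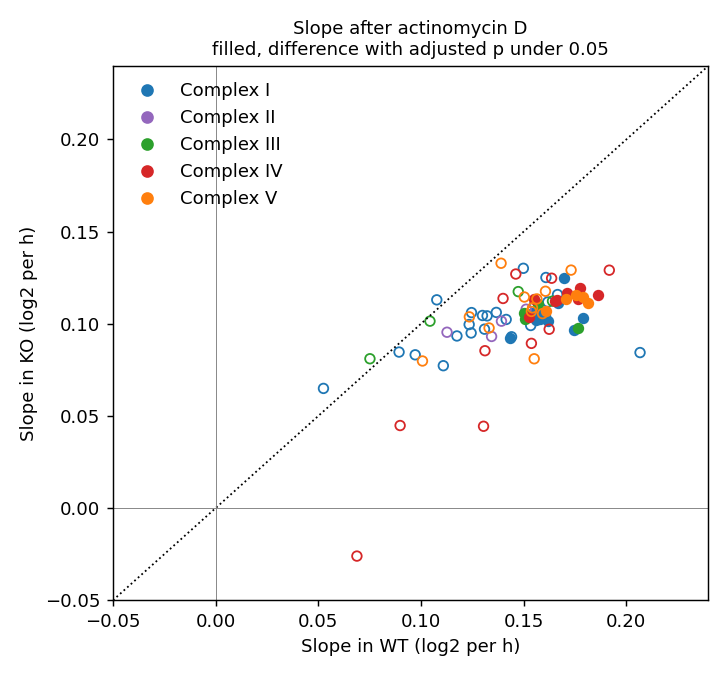
Slope of each tested member in KO (vertical axis) against its slope in WT (horizontal axis), both in log2 per hour after actinomycin D. The dotted line marks equal slopes, colours mark complexes, and filled points are the 29 whose difference passed. All but 3 points lie below the line.

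Members share short mRNAs. Their median mRNA is 823.5 bases, against 2984 for all tested protein-coding genes, with a coding part of 409.5 against 1398 bases and a 3′ untranslated region of 163.5 against 958.5 bases. Complex IV has the shortest mRNAs (median 631.5 bases) and complex II the longest (2065.5 bases). Across the 82 members, Pearson's r with log2 mRNA length was -0.33 for the slope in WT, -0.037 in KO and 0.38 for their difference. Spearman's rho was -0.45, -0.17 and 0.49. For the change in KO, r was -0.021 at 0 h, 0.10 in total RNA and 0.21 in polysomes, with rho of 0.15, 0.31 and 0.30. The difference between the day 3 and day 2 changes had r of 0.21 and rho of 0.43. Members share libraries and are not independent. In the shorter-mRNA 41 members the slope was lower in KO for 20, and in the longer 41 for 9.

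Length also tracked the spread between replicates on day 3. In WT total RNA replicate 1 was above replicate 2 for 74 of 82 members, by a median log2 of 0.31, and the log2 ratio had r = -0.52 with log2 mRNA length. In WT polysomes replicate 1 was above for 23 members (median -0.20) with r = 0.39. In KO r was -0.33 in total RNA and 0.23 in polysomes. In the actinomycin D libraries the medians were closer to 0, at 0.010 in WT and 0.0050 in KO at 0 h, but the ratio still varied with length, with r of -0.25 in 0 h WT, 0.17 in 0 h KO and 0.23 in 4 h KO. The part of this length-linked spread in the changes and slopes was not tested.

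**Figure D5:**
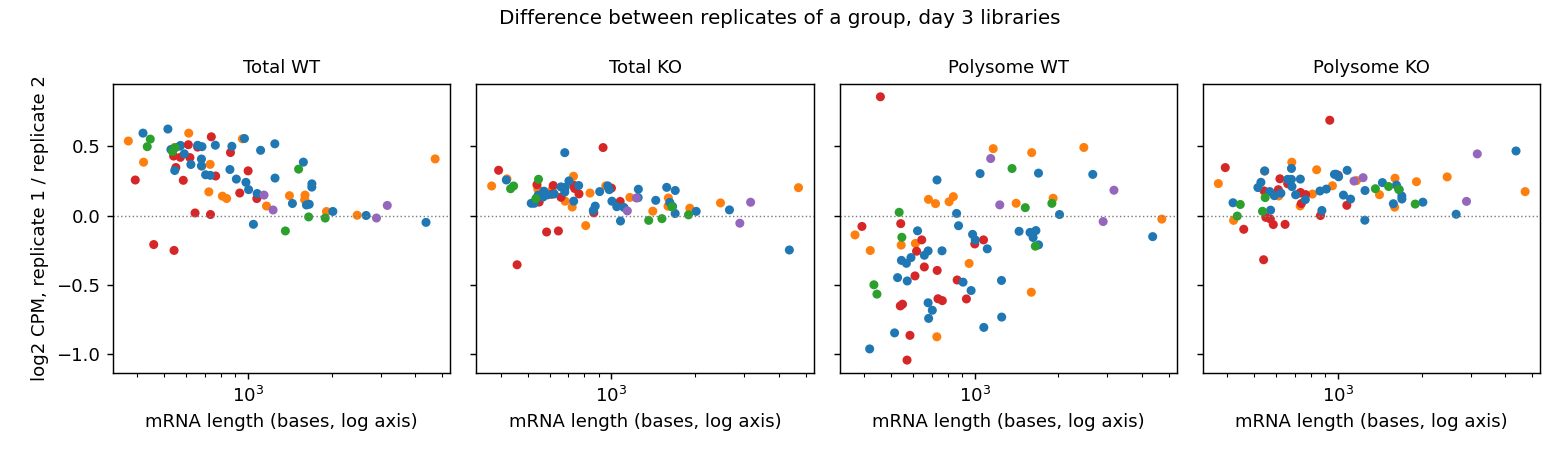
Log2 ratio of replicate 1 to replicate 2 (vertical axis) against mRNA length in bases (log horizontal axis) for the tested members in the 4 day 3 groups, coloured by complex as in the plot of slopes. In WT total RNA most short mRNAs lie above 0, and in WT polysomes most of them lie below 0.

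For some members the level depended on the kind of library more than on Cnot3. Mean CPM was over 5-fold higher in WT total RNA than in WT at 0 h for 7 members, namely Atp5g1, Atp5g2, Atp5h, Atp5l, Cox7c, Ndufb4 and Ndufs5. Atp5g2 measured 111 CPM in WT total RNA, 1.85 CPM in WT polysomes of the same experiment and 1.51 CPM in WT at 0 h. Cox7c measured 205, 9.90 and 7.10 CPM. Cox5a and Ndufa4l2 were lower in total RNA than at 0 h, with 45.6 against 130.4 CPM and 3.86 against 16.6 CPM. In WT polysomes they measured 208 and 32.7 CPM. The files also tally multiply aligned reads, with 0 outside the 4 total libraries, where it was 10341991 to 15515077. In addition 11 annotated pseudogenes have symbols that match the member rule, and 29 members have exons that overlap another annotated gene. Values of these 9 members therefore compare only between libraries of the same kind (total RNA, polysomes or actinomycin D series). The part of near-identical copies was not tested.

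Genes around the pathway are set beside all genes tested, of which 32.9% fell and 29.8% rose at 0 h, 35% had a slope above 0 in WT and 38.8% below, and the slope was lower in KO for 8.78% and higher for 10.2%. Of 43 tested assembly factors 16 fell and 7 rose at 0 h (median -0.072), with the share that fell near that of all genes, including Cox17, a copper chaperone of complex IV (log2 -0.46), the complex I factor Ndufaf4 (-0.58) and Cox19 (-0.57). In WT after actinomycin D 24 had a slope above 0 and 13 below (median 0.035), among them Uqcc2 at 0.17 and Cox10, which makes haem for complex IV, at -0.18. The slope in KO was higher than in WT for 10, including Cox10 (0.13), and lower for 6. For 76 mitochondrial ribosomal proteins, the slope in WT was above 0 in 42 and below in 17 (median 0.032), and the difference was higher in 20 and lower in 1. Cytosolic ribosomal proteins had values near those of members: 75 of 82 fell at 0 h (median -0.46), 73 had a slope above 0 in WT (median 0.14), and the difference was lower in 23 and higher in 1.

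Enzymes of carbon metabolism are read against the same shares of all genes (32.9% lower and 29.8% higher at 0 h, and 35% above and 38.8% below 0 for the slope in WT). All 17 TCA cycle enzymes had a slope above 0 in WT (median 0.11), and 12 fell at 0 h (median -0.15). Of 19 glycolysis enzymes 14 fell and 2 rose at 0 h (median -0.31), 16 had a slope above 0 in WT, and the difference was lower in 8 and higher in 1. Of 14 regulators of mitochondrial genes, 11 had a slope below 0 in WT and none above (median -0.15), including Gabpb1, a GABP subunit (-0.26), Nrf1 (-0.26) and Yy1 (-0.17). At 0 h 7 of them fell and 1 rose. Those of smallest adjusted p were Gabpa, the DNA-binding GABP subunit (-0.53 ± 0.04), the mitochondrial DNA factor Tfam (-0.48 ± 0.04) and Tfb2m, a mitochondrial transcription factor (-0.68 ± 0.15). The slopes of Gabpb1, Nrf1 and Yy1 were higher in KO than in WT, by 0.11, 0.15 and 0.065.

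Among all genes tested, 38.8% had a slope below 0 in WT and 35% above, and the slope was lower in KO for 8.78%. The partner subunits encoded by mitochondrial DNA mostly had slopes below 0 after actinomycin D. Of 13, 6 were at 0 counts in each library of that series and 7 were tested: 4 had a slope below 0 in WT and 1 above (median -0.15), and the difference was lower in KO for 3, mt-Nd6 (-0.20 ± 0.044), mt-Nd4 (-0.16 ± 0.042) and mt-Nd5 (-0.15 ± 0.032). At 0 h 1 of 7 fell, mt-Nd1 (-0.59 ± 0.18), with a median of -0.44, where 32.9% of all genes fell. In total RNA 1 of 11 fell, where 12.2% of all genes did. In polysomes 8 of 11 fell (median -1.95), where 21.1% of all genes did. The 13 genes there summed to 13799.6 and 49419.8 CPM in WT and 9651 and 7480.2 in KO. WT replicate 2 thus stood far above the other polysome libraries.

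Summed levels of cell type markers also differed between WT and KO. At 0 h 7 of 8 ESC markers fell and 1 rose, where 32.9% of all genes fell and 29.8% rose. At 0 h the summed level of 8 ESC markers was 5162 and 5156 CPM in WT and 3643 and 3677 in KO, and on day 3 in total RNA 6913 and 6308 against 3475 and 3286 CPM. Trophectoderm markers, 8 genes, summed to 42.6 and 49.1 CPM in WT and 103 and 104 in KO at 0 h, and to 108 and 119 against 547 and 525 CPM in total RNA. In polysomes they summed to 64.3 and 79.9 CPM in WT and 373 and 873 in KO. On day 3 the WT libraries carry another line label, so line and deletion cannot be told apart for these markers. The 6 muscle markers summed to 17.3 and 17.1 CPM in WT and 32.8 and 30.8 in KO at 0 h. Of these, 4 of 4 tested rose, where 29.8% of all genes did. The 8 feeder fibroblast markers summed to 211 and 215 CPM in WT and 243 and 259 in KO at 0 h. The part of these shifts in the changes of members, including Cox7a1 and the other tissue-type isoforms, was not tested.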

How the data were processed

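Whole-number read counts per gene were deposited by the authors, 1 file per library. The submitters' processing notes name STAR 2.3.0e, HTSeq (no version) and mm9. Library preparation used TruSeq RNA kits, per the labels' design text. No source used here states whether counting was stranded. Rows that tally reads outside genes (no-feature reads were 4.75% to 23.7% of gene, no-feature and ambiguous reads) entered neither library sizes nor tests. Symbols, biotypes and lengths came from GENCODE M21 (GRCm38) by gene ID, for 32919 of 37991 IDs. Promoters came from RefSeq (GRCm38.p6).

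Counts were fitted with edgeR 4.0.16 in R 4.3.3 (TMM, robust quasi-likelihood tests, genes kept by filterByExpr at 10 counts, Benjamini-Hochberg over all genes tested, threshold 0.05). Day 3 total and polysome libraries (8) and the actinomycin D libraries (12) were fitted separately. The day comparison used the 4 total and the 4 libraries of 0 h. RPKM used the principal transcript's length. The script was tested on simulated counts. Replicates are labelled biological replicates with no word on separate cultures, so p-values measure the spread between these samples.

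The members and lists were chosen with earlier results of these data known. Named members are the highest and lowest change per complex and comparison, up to 3 of smallest adjusted p among those past the threshold per complex, the 4 Sdh genes and the isoform families. In related lists up to 3 genes of smallest adjusted p are named. Groupings of subunits by role were made after values were seen. Alternatives were RLE scaling, library totals, no filter, a 1 CPM filter, DESeq2 1.42.0, a replicate block, protein-coding genes only, the 4 libraries compared, scaling to ribosomal protein or mitochondrial mRNAs, time as a factor, and each library left out. The contrast of 8 h against 4 h was added after seeing the data. Figures were drawn with matplotlib 3.10.9.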

Additional observations from a re-analysis of the deposited data

Results flagged for a closer look

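The slope after actinomycin D, relative to the average mRNA of each arm, was lower in KO than in WT for 29 members. The call is by the test of the slope difference itself (edgeR, adjusted p under 0.05). Among the named members the differences in log2 per hour that passed also with any 1 library left out were Uqcr11 -0.079, Ndufa13 -0.078, Ndufa3 -0.076, Cox6c -0.071, Atp5e -0.070, Atp5j2 -0.064, Cox6b1 -0.063, Atp5k -0.060 and Cox7b -0.053. Those that did not pass without at least 1 of the libraries were Ndufa4 -0.053, Ndufa10 -0.048, Cox8a -0.058, Cox6a1 -0.054, Uqcr10 -0.046, Cox4i1 -0.049, Cox7a2 -0.042 and Uqcrq -0.044. The count was 8 with RLE scaling, 13 with library totals, 16 by DESeq2, and 6 lower with 8 higher when scaled to ribosomal protein mRNAs. Scaled to mitochondrially encoded mRNAs, none of these passed as lower. No group had 4 or more samples, so single libraries were not tested for standing apart.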

How the results depend on the processing

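Falls at 0 h numbered 48 with library totals, 70 with RLE scaling or DESeq2 and 61 to 65 with 1 library left out, and the rises numbered 8 with library totals, 1 by DESeq2 and 1 to 3 with 1 library left out. Library totals and RLE scaling moved the median of all genes at 0 h to 0.14 and -0.15. Falls in total RNA numbered 7 with library totals and 0 to 63 with 1 library left out, and rises 1 to 3. Falls in polysomes numbered 28 with only the 4 libraries compared and 12 to 57 with 1 library left out, with 0 to 1 rises. Association was lower for 0 to 11 and higher for 0 members with 1 library left out. The day difference was lower for 1 member with RLE scaling, DESeq2, the replicate block and protein-coding genes only, 10 with no filter and 0 to 47 with 1 library left out, and higher for 1 with library totals. Slopes above 0 numbered 81 in WT and 79 in KO with any 1 library left out. Scaled to ribosomal protein mRNAs they were 27 above and 15 below 0 in WT and 6 above and 10 below in KO, a scaling that moved the median of all genes to -0.15 in WT and -0.11 in KO. Lower slopes in KO numbered 8 with RLE scaling, 13 with library totals, 16 by DESeq2, 63 at 8 h and 50 at 4 h with time as a factor, 9 to 43 with 1 library left out, 0 scaled to mitochondrial mRNAs, and 6 with 8 higher scaled to ribosomal protein mRNAs. For 8 h against 4 h the count was 23.

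Signs turned for Sdha at 0 h with library totals (log2 0.111) and for slopes under the scalings to gene groups. Scaled to ribosomal protein mRNAs, slopes in WT per hour were Ndufs3 -0.091, Sdhb -0.030, Sdha -0.0087, Sdhd -0.0038, Uqcrfs1 -0.068, Atp5s -0.042, Atp5g2 -0.0027, Cox4i2 -0.0022, Cox7a2l -0.053 and Ndufa4l2 -0.012, slopes in KO were Ndufs3 -0.040, Ndufa3 -0.0016, Sdha -0.012, Sdhb -0.010, Uqcrfs1 -0.024, Uqcrc2 -0.0037, Atp5s -0.025, Cox4i1 -0.0017, Cox6b2 -0.0078, Cox7a1 -0.015, Cox7a2l -0.060, Ndufa4l2 -0.060 and Sdhd -0.0037, and the slope difference of Sdhb was 0.021. Scaled to mitochondrial mRNAs, slope differences were Ndufa10 0.0093, Uqcr10 0.010, Uqcrq 0.013, Cox7b 0.0040, Cox4i1 0.0073, Cox6a1 0.0024, Cox7a2 0.014 and Ndufa4 0.0042. The cause was not tested.

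Replicate numbers did not mark a shared batch in the labels, and replicate differences of same-numbered libraries correlated at -0.055 to 0.22 across genes. With a replicate block 65 members fell at 0 h, 41 in total RNA and 52 in polysomes, and 23 had a lower slope in KO. Depth limited Cox7b2 and Cox8c. With 2 replicates a group and 1 left out, the lone library was taken to have the spread of the other groups.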
